A study of Mus musculus with 9 samples.

Results

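The 10 genes described here, *Trim28*, *Setdb1*, *Zfp57*, *Atrx*, *Daxx*, *Hells*, *Mphosph8*, *Morc3*, *Ehmt2* and *Cbx5*, encode factors that silence retroelements and build heterochromatin. They were found by symbol, and all 10 were present among the 54232 genes of the count table. RNA-seq covered naïve mESCs and the primed mEpiSCs converted from them, at passage 5 (P5) and passage 15 (P15), and each of these 4 groups had 2 libraries. Both states are 1 line of C57 × CBA background that carries a GFP reporter under the distal Oct4 promoter. Naïve cells were kept in serum and LIF (S/L medium), primed cells in F/A medium with bFGF and activin A, and both grew on mitomycin C-treated MEF feeder cells. The ninth library is from MEFs of the same background. The study calls its pairs of libraries biological repeats of this line, and p-values measure the spread between them within 1 line. That spread was small, with a coefficient of variation beyond counting error of 3.26% to 4.79% as estimated by edgeR. The methods do not state whether the repeats were separate conversions. Differences between cultures other than state or passage therefore cannot be told apart from state or passage.

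KRAB zinc finger proteins such as Zfp57 bind particular DNA sequences and recruit Trim28 (Kap1), a corepressor that brings the histone H3 lysine 9 (H3K9) methyltransferase Setdb1. Methylated H3K9 is bound by HP1 proteins such as Cbx5, and by Mphosph8 within the HUSH complex. Atrx and Daxx deposit the histone variant H3.3 at repeats and telomeres, Morc3 is an ATPase of the same silencing network, Ehmt2 (G9a) methylates H3K9, and Hells is a remodeller needed for DNA methylation of repeats. In mouse ES cells this machinery is known for keeping endogenous retroviruses silent.

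The upstream sequence of the 4 genes that fell at least 2-fold at a passage is printed to show their start regions. All 10 genes matched RefSeq (GRCm38.p6), with 16 start sites among them. Each line holds the 250 bases before a start, 5′ to 3′ on the strand of the gene, with CpG dinucleotides in capitals. For *Zfp57* it is the most upstream of its 3 starts.
Trim28 (chr7:13023902-13024151, plus strand): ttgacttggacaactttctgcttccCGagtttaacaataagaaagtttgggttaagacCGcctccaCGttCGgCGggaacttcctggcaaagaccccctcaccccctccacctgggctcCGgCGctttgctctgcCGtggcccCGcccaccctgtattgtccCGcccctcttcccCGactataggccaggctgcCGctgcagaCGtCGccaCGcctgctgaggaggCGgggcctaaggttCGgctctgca
Hells (chr19:38930740-38930989, plus strand): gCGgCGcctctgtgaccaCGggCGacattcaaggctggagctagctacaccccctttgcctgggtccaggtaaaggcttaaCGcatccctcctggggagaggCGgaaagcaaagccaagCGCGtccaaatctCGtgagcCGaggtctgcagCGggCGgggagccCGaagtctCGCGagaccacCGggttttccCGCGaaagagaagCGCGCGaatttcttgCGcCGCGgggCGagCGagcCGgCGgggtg
Morc3 (chr16:93831871-93832120, plus strand): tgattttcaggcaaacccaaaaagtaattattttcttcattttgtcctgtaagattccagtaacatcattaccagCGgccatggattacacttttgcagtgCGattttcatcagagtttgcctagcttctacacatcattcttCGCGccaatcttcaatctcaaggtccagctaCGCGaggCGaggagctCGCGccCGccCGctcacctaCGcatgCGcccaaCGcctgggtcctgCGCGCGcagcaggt
Zfp57 (chr17:37000913-37001162, plus strand): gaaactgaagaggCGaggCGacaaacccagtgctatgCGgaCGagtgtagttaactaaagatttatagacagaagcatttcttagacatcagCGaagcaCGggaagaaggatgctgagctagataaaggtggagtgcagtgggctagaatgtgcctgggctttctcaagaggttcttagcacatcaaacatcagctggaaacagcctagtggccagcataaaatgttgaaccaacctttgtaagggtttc
These windows held 17 CpG for *Trim28*, 28 for *Hells*, 17 for *Morc3* and 6 for *Zfp57*, against a median of 6 over all 32851 windows of this length. Windows of the members that did not fall 2-fold ranged from 6 CpG for *Atrx* to 36 for 1 start of *Ehmt2*. More CpG than in the *Hells* window were found in 6.78% of all windows, and more than in the *Zfp57* window in 46.3%. The GC box GGGCGG, sought on both strands, was in the windows of *Trim28*, *Hells* and *Morc3* but not in that of *Zfp57*, and 32.7% of all windows held it. Of the other motifs sought on both strands, the NRF1 letters GCGCATGC were in the *Morc3* window and in 2.26% of all windows. The CCAAT box was in the *Morc3* window and in 33.8% of all windows. The E2F letters, spelled TTTCCCGC, TTTCGCGC, TTTGCCGC or TTTGGCGC, were in the *Hells* window, as TTTCCCGC, and in 1.86% of all windows. The octamer ATGCAAAT and AAGATGGC for YY1 were in none of the 4 windows. A match of letters is a description and no measured binding.

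Libraries held 14378051 to 20985136 counts in naïve and primed cells and 25646547 in MEFs, and no member had fewer than 680 counts in a library. Levels are given as CPM, that is counts scaled to library size after TMM adjustment. All 6 naïve markers, among them *Zfp42* (Rex1) and *Esrrb*, were called lower and all 6 primed markers, among them *Fgf5* and *Otx2*, were called higher in primed cells at both passages. The 3 core pluripotency genes *Pou5f1* (Oct4), *Nanog* and *Sox2* were called lower too, with a median log2 fold change of -1.72 at P5 and -0.62 at P15. Within primed cells, 2 of these 3 rose from P5 to P15 and 1 fell. Their relation to the changes of the members was not tested. RNA of fibroblast marker genes was present throughout, and how much of it came from feeder cells was not tested. The summed level of 30 fibroblast markers was 14351 and 14461 CPM in naïve P5, 10510 and 10225 in primed P5, 23063 and 24212 in naïve P15, 19277 and 18403 in primed P15 and 94711 in MEFs. None of the 30 was at 0 in a library, and the median marker was at 15.1% to 25.7% of its MEF level. The lowest marker was at 2.51% to 6.61%, so a feeder share taken from the median may be too large, and values after its subtraction are to be read as such. In both primed P15 libraries, 4 of the 30, and in both primed P5 libraries 2 of the 30, were above the MEF level. These are whole cultures, in which fewer cells of a type and less RNA per cell cannot be told apart.

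**Figure D1:**
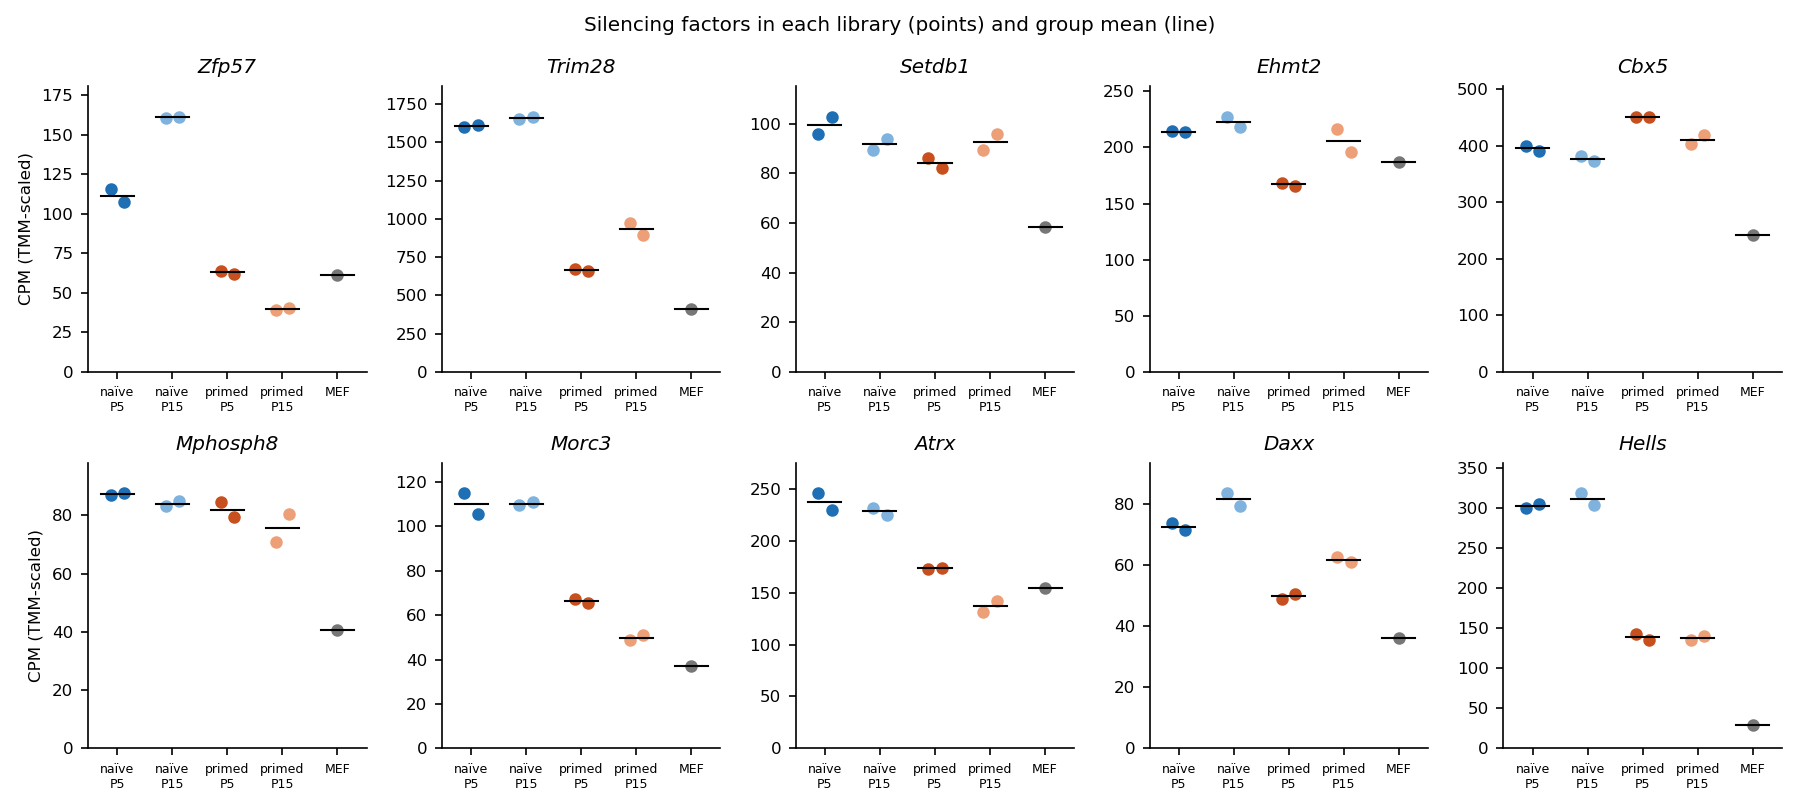
Level of each silencing factor in CPM of TMM-scaled library size (vertical axis, from 0), with 1 point for each library and a line at the group mean, for both states at both passages (2 libraries each) and MEFs (1 library). *Trim28*, *Zfp57*, *Hells*, *Morc3*, *Atrx*, *Daxx*, *Ehmt2* and *Mphosph8* have both primed libraries below both naïve libraries at each passage, and *Cbx5* has them above. Of these, *Mphosph8* was called at neither passage, and *Ehmt2* and *Cbx5* at P5 only. The share of all genes separated in this way was not counted, and with 2 libraries per group such separation alone shows little.

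The silencing factors of this list, chosen with earlier results of these data known, were mostly lower in primed cells. The shares over all genes given below are therefore context and no test of the class. By the quasi-likelihood test of edgeR, with p-values adjusted after Benjamini and Hochberg over all genes tested, 8 of the 10 members were lower in primed cells at P5 at an adjusted p under 0.01, 1 (*Cbx5*) was higher and 1 (*Mphosph8*) was not called. At P15, 6 were lower, 0 higher and 4 not called. Among all 16482 genes tested at P5, 31.1% were called lower and 31.2% higher, and among the 15733 at P15, 28.4% and 28.2%. The members had a median log2 fold change of -0.47 at P5 and -0.58 at P15, beside medians of 0.01 and -0.004 over all genes. A fall of at least 2-fold was seen for *Trim28* and *Hells* at P5 (8.85% of all genes) and for *Zfp57*, *Hells* and *Morc3* at P15 (11.0% of all genes). With library sizes left unscaled, the median of all genes moved up by 0.20 at P5 and 0.10 at P15, 65.8% rather than 50.1% of the calls at P5 and 58.8% rather than 49.9% at P15 were higher, and the *Setdb1* call at P5 was lost (log2 fold change -0.01, adjusted p = 0.916).

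*Zfp57*, which protects imprinted regions together with Trim28, had the largest fall of the 10 at P15, while at P5 *Trim28* and *Hells* fell more. Its level was 116 and 107 CPM in naïve P5, 161 and 161 in naïve P15, 63.8 and 62.1 in primed P5, 39.0 and 40.6 in primed P15 and 61.5 in MEFs. The state groups did not overlap at either passage, and primed P15 lay below the MEF library. The log2 fold change was -0.79 ± 0.05 (SE, edgeR adjusted p = 1.66e-14) at P5 and -2.03 ± 0.07 (adjusted p = 1.37e-24) at P15, a 4.08-fold difference. With each library's feeder share of MEF counts taken off, the change at P15 was -2.55.

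*Trim28*, the corepressor itself, was the most abundant member. It measured 1598 and 1612 CPM in naïve P5, 1653 and 1669 in naïve P15, 672 and 658 in primed P5, 972 and 895 in primed P15 and 411 in MEFs. The 4 naïve libraries were close together, and primed cells stood between them and MEFs. On the log2 scale the change was -1.24 ± 0.03 (edgeR adjusted p = 3.42e-24) at P5 and -0.84 ± 0.05 (adjusted p = 2.43e-16) at P15.

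*Setdb1*, the H3K9 methyltransferase recruited by Trim28, was at 95.8 and 103 CPM in naïve P5, 86.0 and 81.9 in primed P5, 89.5 and 93.7 in naïve P15, and 89.3 and 95.8 in primed P15. The primed libraries were the lower ones at P5 and overlapped the naïve ones at P15. Its log2 fold change was -0.21 ± 0.05 (edgeR adjusted p = 4.17e-04) at P5, and -0.15 (adjusted p = 0.0433) without primed P5 replicate 2. At P15 it was 0.004, with a 95% interval of -0.13 to 0.14. Exons of *Setdb1* overlap those of *Cers2* and *Gm37500* on the opposite strand by 75 and 249 bases, and without strand the reads there cannot be told apart.

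*Ehmt2*, which encodes G9a and acts mainly on H3K9 dimethylation, was at 214 and 214 CPM in naïve P5, 168 and 166 in primed P5, 227 and 218 in naïve P15, and 216 and 196 in primed P15. The groups stood apart at P5 and came close at P15. At P5 it fell by 0.32 ± 0.04 on the log2 scale (edgeR adjusted p = 9.92e-09). The change at P15 was -0.13, with a 95% interval of -0.25 to -0.002 (adjusted p = 0.0692).

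*Cbx5*, which encodes the methyl-H3K9 reader HP1α, was the member that was higher in primed cells. Levels were 399 and 391 CPM in naïve P5, 451 and 452 in primed P5, 382 and 373 in naïve P15, and 402 and 419 in primed P15. Primed libraries were above naïve ones at both passages, by a small margin at P15. On the log2 scale the change was 0.22 ± 0.03 (edgeR adjusted p = 1.09e-06) at P5 and 0.11 ± 0.06 (adjusted p = 0.0811) at P15, where it became 0.22 (adjusted p = 9.49e-04) with unscaled library sizes.

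*Mphosph8*, the chromodomain subunit of HUSH, was not called at either passage. It was at 87.1 and 87.6 CPM in naïve P5, 84.5 and 79.3 in primed P5, 83.1 and 85.0 in naïve P15, and 70.8 and 80.4 in primed P15. The primed libraries were below the naïve ones by little. The 95% interval of the log2 fold change was -0.16 to 0.04 at P5, where the sign turned with unscaled library sizes (0.14), and -0.31 to -0.02 at P15 (edgeR adjusted p = 0.0432). Its exons share 384 bases with the lincRNA *Gm16973* on the opposite strand.

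*Morc3*, an ATPase that silences retroelements, was at 115 and 105 CPM in naïve P5, 109.5 and 111 in naïve P15, 67.4 and 65.7 in primed P5, and 48.9 and 50.9 in primed P15. Naïve levels were similar at both passages, and primed levels were lower at each. Its log2 fold change was -0.69 ± 0.05 (edgeR adjusted p = 4.08e-13) at P5 and -1.15 ± 0.07 (adjusted p = 4.83e-17) at P15.

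*Atrx*, the X-linked remodeller that works with Daxx, was at 246 and 229.5 CPM in naïve P5, 173 and 174 in primed P5, 232 and 225 in naïve P15, and 131 and 142 in primed P15. Primed libraries were below naïve ones at both passages. The log2 fold change was -0.42 ± 0.04 (edgeR adjusted p = 1.09e-10) at P5 and -0.75 ± 0.06 (adjusted p = 3.13e-13) at P15. The median over 565 genes of the X chromosome tested was 0.15 at P5, and over 551 at P15 it was 0.06. *Xist*, which marks an inactive X, was at 40.6 and 42.7 CPM in primed P5 and 15.5 and 18.1 in primed P15. It was at 19.7 to 21.2 CPM in naïve cells and at 189.5 in MEFs. How much of the level in naïve and primed cultures came from feeder RNA was not tested.

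*Daxx*, the H3.3 chaperone, was at 73.7 and 71.5 CPM in naïve P5, 49.0 and 50.7 in primed P5, 83.6 and 79.5 in naïve P15, and 62.5 and 61.1 in primed P15. It was lower in primed cells without overlap at each passage. Its log2 fold change was -0.51 ± 0.05 (edgeR adjusted p = 1.81e-09) at P5 and -0.41 ± 0.07 (adjusted p = 4.15e-06) at P15.

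*Hells* was at 300.5 and 306 CPM in naïve P5, 319 and 304 in naïve P15, 143 and 136 in primed P5, 135 and 140.5 in primed P15, and 29.1 in MEFs. Naïve libraries stood well above primed ones, and the 95% interval of the log2 change from P5 to P15 was -0.05 to 0.13 in naïve and -0.16 to 0.07 in primed cells, where it became a called fall with unscaled library sizes. The log2 fold change was -1.09 ± 0.04 (edgeR adjusted p = 1.33e-20) at P5 and -1.19 ± 0.06 (adjusted p = 2.43e-19) at P15. S phase genes moved in the same direction, with 22 of 24 called lower and 0 higher at P5 (median log2 fold change -0.77) and 17 lower and 1 higher at P15 (median -0.48). Their summed level was 4479 and 4487 CPM in naïve P5, 2574 and 2535 in primed P5, 4433 and 4456 in naïve P15, and 3247 and 3199 in primed P15. Their part in the change of *Hells* was not tested.

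**Figure D2:**
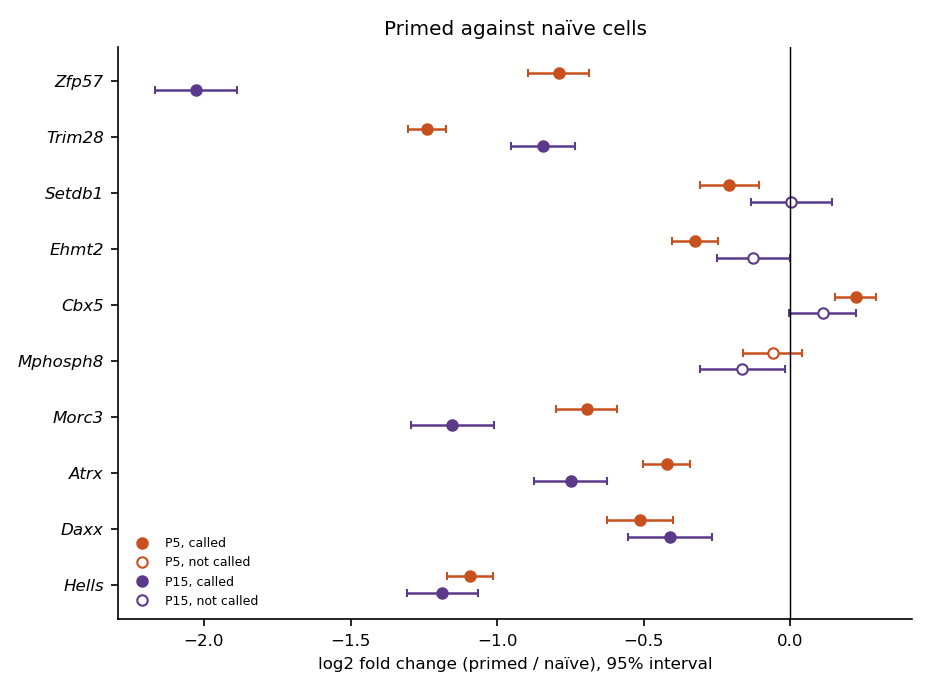
Log2 fold change of primed against naïve cells (horizontal axis) for each silencing factor at P5 and P15, with 95% intervals from edgeR's quasi-likelihood fit of 4 libraries, filled where the adjusted p is under 0.01. *Zfp57* reaches -2.03 at P15, *Hells* lies near -1.1 at both passages, and only *Cbx5* is called to the right of 0.

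For 4 of the 10 members the effect of the primed state differed between P5 and P15, and for 6 no difference was called. The difference between both effects was tested over the 8 naïve and primed libraries by edgeR's interaction term, and 3 members were called for a more negative effect at P15, where 10.8% of the 16926 genes tested were, and 1 for a less negative one, where 13.3% of genes moved up. With unscaled library sizes the median of all genes moved down by 0.11, and 35.2% rather than 55.0% of the calls were upward. *Zfp57* differed by -1.22 ± 0.08 on the log2 scale (edgeR adjusted p = 3.52e-13), *Morc3* by -0.44 ± 0.08 (adjusted p = 1.15e-04) and *Atrx* by -0.31 ± 0.07 (adjusted p = 9.60e-04). The *Atrx* call was lost without naïve P5 replicate 2 (-0.25, adjusted p = 0.0227). For *Trim28* the effect at P15 was smaller, by 0.41 ± 0.06 (adjusted p = 5.39e-07). The other 6 did not pass, among them *Setdb1* at 0.23 (adjusted p = 0.0326) and *Hells* at -0.08 with a 95% interval of -0.22 to 0.06. *Ehmt2* was at 0.22 (edgeR adjusted p = 0.0169), and it was called without the low-count filter (0.24, adjusted p = 0.00423). Without primed P15 replicate 2 its difference was 0.29. *Cbx5*, at -0.10 (adjusted p = 0.223), was called with unscaled library sizes (-0.21, adjusted p = 0.00564).

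Within naïve cells, passage moved a single member. *Zfp57* rose from P5 to P15 by 0.53 ± 0.05 on the log2 scale (edgeR adjusted p = 1.19e-05), while 0 of the 10 were lower and 9 were not called. Of all 15683 genes tested, 5.01% were called lower and 4.21% higher. *Daxx* came next at 0.17 (adjusted p = 0.0557), and *Morc3* was at 0.002 with a 95% interval of -0.12 to 0.12.

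Within primed cells, 4 members fell and 3 rose from P5 to P15, where 22.8% and 24.3% of the 15957 genes tested did so. The members that fell were *Zfp57* (log2 fold change -0.69 ± 0.07, edgeR adjusted p = 1.92e-09), *Morc3* (-0.45 ± 0.07, adjusted p = 1.51e-06), *Atrx* (-0.38 ± 0.05, adjusted p = 1.22e-06) and *Cbx5* (-0.17 ± 0.05, adjusted p = 0.00263). *Trim28* rose by 0.46 ± 0.05 (adjusted p = 3.68e-09), *Daxx* by 0.28 ± 0.07 (adjusted p = 7.28e-04) and *Ehmt2* by 0.27 ± 0.05 (adjusted p = 1.32e-04). With unscaled library sizes the median of all genes moved down by 0.13, 34.2% rather than 51.5% of the calls were higher, *Trim28* alone was called higher, and *Hells* (-0.18, adjusted p = 0.00643) and *Mphosph8* (-0.28, adjusted p = 7.90e-04) were called lower. The *Daxx* call was lost without primed P5 replicate 1 (adjusted p = 0.0369) and the *Cbx5* call without primed P5 replicate 1 or 2 (adjusted p = 0.0204 and 0.023). *Mphosph8*, at -0.15 (adjusted p = 0.0535), was called without primed P15 replicate 2 (-0.24, adjusted p = 7.66e-04). S phase genes rose over the same passages in primed cells in 17 of 24 cases and fell in 1, and fibroblast markers rose in 25 of 30 and fell in 2, and their part in these changes was not tested. With the feeder share subtracted, the change of *Cbx5* was -0.10 (adjusted p = 0.134) and the other 6 calls were kept.

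**Figure D3:**
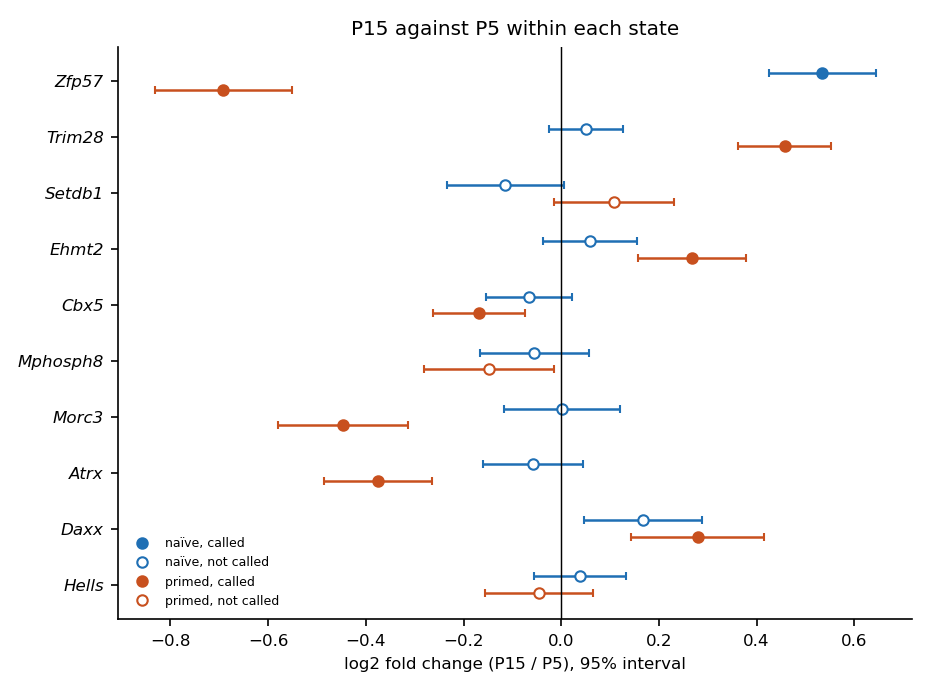
Log2 fold change of P15 against P5 (horizontal axis) for each silencing factor in naïve and in primed cells, with 95% intervals from edgeR's quasi-likelihood fit of 4 libraries, filled where the adjusted p is under 0.01. *Zfp57* is called to opposite sides in both states, at 0.53 in naïve and -0.69 in primed cells, and in naïve cells it is the single call.

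Per kb of exon, *Trim28* led in every group, with 386 CPM per kb in naïve P5, 399 in naïve P15, 160.0 in primed P5, 224 in primed P15 and 98.9 in MEFs. Next in naïve P5 were *Cbx5* (43.9), *Hells* (42.1), *Ehmt2* (39.0) and *Zfp57* (29.4), and *Atrx* was last at 10.9. In primed P15 the order was *Cbx5* (45.6), *Ehmt2* (37.5), *Mphosph8* (21.1), *Daxx* (19.6), *Hells* (19.1), *Setdb1* (13.5), *Zfp57* (10.5), *Morc3* (9.19) and *Atrx* (6.29). In naïve P15, *Zfp57* stood at 42.6, after *Trim28* and *Hells*. Neighbours whose 2 libraries overlapped were *Hells* with *Zfp57* and *Cbx5* with *Ehmt2* in naïve P15, *Morc3* with *Setdb1* in primed P5, and *Mphosph8* with *Daxx* and *Daxx* with *Hells* in primed P15. The length is that of all annotated exons merged, so a gene with many unused exons is understated.

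MEF levels were below the mean of the 8 naïve and primed libraries for all 10 members, with 1 MEF library and therefore no test. *Hells* was lowest against that mean, at 29.1 against 223 CPM (log2 difference -2.89 with a pseudocount of 1), followed by *Trim28* (-1.56), *Morc3* (-1.17) and *Mphosph8*, which lay at the 2-fold limit. These 4 were at least 2-fold lower, as were 17.4% of the 17180 genes compared. *Ehmt2* was nearest, at 187 against 203 CPM. Against single groups, the MEF level was above that of primed P15 for *Zfp57* and *Atrx* and above that of primed P5 for *Ehmt2*. The feeder share subtracted from every library left the calls of all 10 members at P5 and at P15 as they were.

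**Figure D4:**
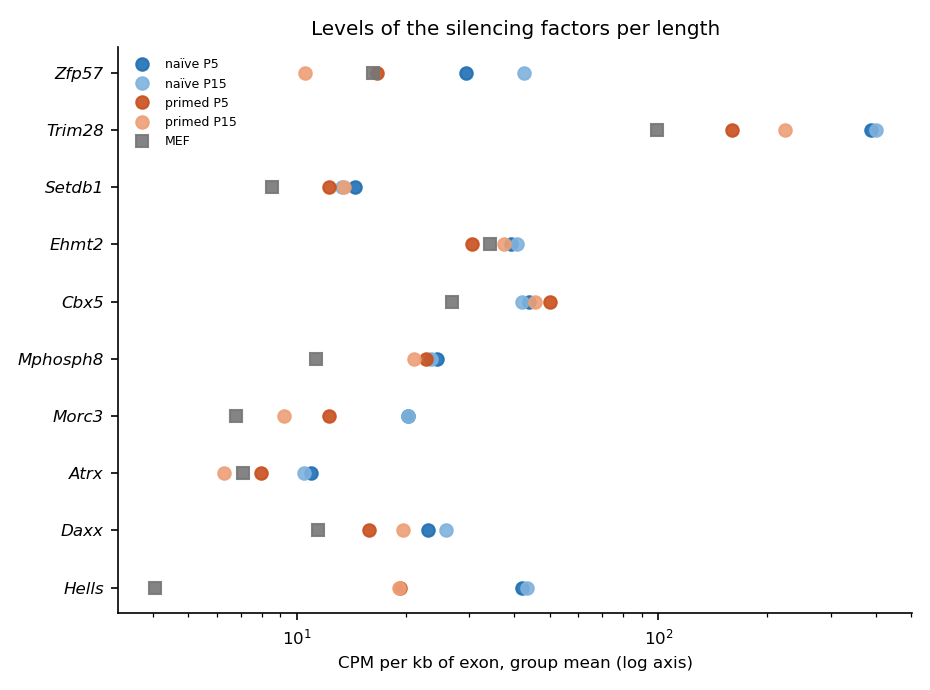
Mean level of each silencing factor in CPM per kb of merged exon (log axis) in the 4 groups of naïve and primed libraries and in MEFs (1 library, squares). *Trim28* lies apart from the others in every group, and the MEF level of *Hells*, 4.04, is the lowest point.

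Genes whose pattern was most like that of a member were sought where the member's 4 group means spanned at least 1 log2 unit. The measure was the root mean square distance of centred log2 levels over the 8 naïve and primed libraries, over 10000 genes. For *Trim28* they were *Nup85* (0.048), *Aars* (0.048) and *Ddx21* (0.053), which encode a nuclear pore subunit, alanyl-tRNA synthetase and a nucleolar helicase. For *Hells* they were *Larp1b* (0.046), *Taf5l* (0.054) and *Rfc5* (0.055), the last a subunit of the clamp loader of DNA replication. For *Morc3* they were *Uri1* (0.039), *Bard1* (0.047), the partner of Brca1, and *Tm7sf3* (0.047). For *Zfp57* the nearest were farther away, *Rasgrp2* (0.11), *Zfp991* (0.13) and *Col4a5* (0.14).

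Of 63 other genes of the same machinery, in 8 lists, 62 were tested. At P5, 34 were lower and 10 higher, and at P15, 30 and 13, with median log2 fold changes of -0.26 and -0.23. The shares over all genes are those given above, and these lists too were chosen with earlier results of these data known. In primed cells from P5 to P15, 21 fell and 16 rose, and in naïve cells 2 fell and 3 rose. With unscaled library sizes, 20 were lower and 18 higher at P5.

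Of KRAB zinc finger genes and their partners, 2 of 8 were lower and 1 higher at P5, and 5 and 2 at P15. The shares over all genes were 31.1% lower and 31.2% higher at P5, and 28.4% and 28.2% at P15. *Zfp568*, a repressor of the placental *Igf2* transcript, fell at both passages (log2 fold change -0.98 ± 0.04 at P5, -1.29 ± 0.06 at P15). *Zfp445*, which acts on imprinted regions as Zfp57 does, was instead at 67.7 and 70.6 CPM in naïve P5 and 94.5 and 94.0 in primed P5 (log2 fold change 0.48 ± 0.05). At P15 its change was 0.24 ± 0.07, and the call was lost in 6 of 11 alternatives, among them those without naïve P15 replicate 1 (adjusted p = 0.0254), naïve P15 replicate 2 (adjusted p = 0.0488) and primed P15 replicate 2 (adjusted p = 0.0991). *Zfp932*, which binds endogenous retroviruses, was at -0.44 and -0.50, and its call was lost in 7 of 11 alternatives at P5 and in 5 of 11 at P15. These included leaving out naïve P5 replicate 2, primed P5 replicate 1 or 2, naïve P15 replicate 1 or primed P15 replicate 2, with adjusted p of 0.0459 to 0.0913.

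Of the H3K9 methyltransferase list, 4 of 8 were higher and 1 lower at P5, and 3 and 1 at P15, beside 31.2% and 28.2% of all genes called higher. Its median log2 fold change was 0.24 at P5 and 0.10 at P15. *Suv39h1*, the trimethylase of pericentromeric heterochromatin, was at 30.5 and 30.0 CPM in naïve P5, 55.0 and 49.1 in primed P5, 25.7 and 25.6 in naïve P15, and 42.5 and 45.3 in primed P15. Primed libraries were above naïve ones at each passage, with log2 fold changes of 0.82 ± 0.07 (edgeR adjusted p = 1.17e-11) and 0.76 ± 0.09 (adjusted p = 3.37e-09). *Wiz*, the zinc finger partner of G9a, rose by 0.38 ± 0.05 and 0.40 ± 0.07.

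Within the HP1 family and its partners, 5 of 8 were lower and 0 higher at P5, and 4 and 0 at P15. Called over all genes were 31.1% lower and 31.2% higher at P5, and 28.4% and 28.2% at P15. *Cbx1*, which encodes HP1β, fell, with log2 fold changes of -0.69 ± 0.04 (edgeR adjusted p = 1.72e-15) and -0.94 ± 0.07 (adjusted p = 4.31e-15), whereas *Cbx5* was higher at P5. *Cdyl2*, a chromodomain gene, fell from 31.3 and 33.3 CPM in naïve P5 to 7.40 and 7.32 in primed P5, and its level in primed P15 was 3.79 and 2.95. *Cdyl* was at -0.22 ± 0.06 on the log2 scale at P5, a call lost without primed P5 replicate 2 (adjusted p = 0.0352), by DESeq2's Wald test (adjusted p = 0.0163) and with unscaled library sizes (-0.02, adjusted p = 0.809), and at -0.90 ± 0.08 at P15.

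Of HUSH subunits and MORC genes, 3 of 6 were lower and 1 higher at P5, and 4 and 1 at P15. Over all genes the shares were 31.1% lower and 31.2% higher at P5, and 28.4% and 28.2% at P15. *Fam208a* and *Pphln1*, both of HUSH, changed in opposite directions. *Fam208a*, which encodes the scaffold Tasor, was at 58.2 and 51.0 CPM in naïve P5, 26.2 and 25.3 in primed P5, 57.8 and 56.2 in naïve P15, and 18.8 and 19.2 in primed P15. *Pphln1*, which encodes the subunit periphilin, was at 42.6 and 42.5 in naïve P5, 123 and 125 in primed P5, 47.1 and 47.2 in naïve P15, and 113 and 114 in primed P15. So primed cells held less of the first, with log2 fold changes of -1.05 ± 0.07 and -1.59 ± 0.09, and more of the second, with 1.57 ± 0.05 and 1.26 ± 0.07. *Mphosph8* was called in neither direction. *Morc2a*, an ATPase that works with HUSH and is named here after its values were seen, was at -0.64 ± 0.05 and -0.60 ± 0.07. *Morc1*, a germline relative of *Morc3*, fell from 27.2 and 32.7 CPM in naïve P5 to 6.26 and 6.99 in primed P5. In primed P15 it had 0 and 2 counts, so that it was at least 153-fold lower than in naïve P15 when set against 3 counts per library.

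Of H3.3 genes and histone chaperones, 8 of 11 were lower and 1 higher at P5, and 3 and 2 at P15. Of all genes, 31.1% were lower and 31.2% higher at P5, and 28.4% and 28.2% at P15. *Smarcad1*, a remodeller of heterochromatin, fell, with log2 fold changes of -0.91 ± 0.05 and -1.18 ± 0.07, and so did *Chaf1b*, of the replication-coupled chaperone CAF-1, with -0.52 ± 0.05 and -0.50 ± 0.07. *Hira*, the H3.3 chaperone outside heterochromatin, was at -0.50 ± 0.09 at P5, and its value at P15 was -0.37 ± 0.10, a call lost in 4 of 11 alternatives, among them that without primed P15 replicate 1 (adjusted p = 0.0625).

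Of DNA methylation genes, 5 of 7 were lower and 1 higher at P5, and 5 and 2 at P15. For comparison, 31.1% of all genes were lower and 31.2% higher at P5, and 28.4% and 28.2% at P15. *Dnmt3l*, a cofactor of the de novo methyltransferases, was at 223 and 211 CPM in naïve P5, 33.0 and 31.4 in primed P5, 246 and 246 in naïve P15, and 1.32 and 0.40 in primed P15. Levels in primed cells were under the naïve ones at both passages, and lower at P15 than at P5. *Uhrf1*, which guides Dnmt1 to hemimethylated DNA, fell, with log2 fold changes of -0.66 ± 0.04 and -0.55 ± 0.06, and so did *Dnmt3a*, with -0.40 ± 0.04 and -0.94 ± 0.06. *Dnmt3b*, which the paper uses as a primed marker, was higher at both passages and is named here after its values were seen. Its log2 fold changes were 0.48 ± 0.04 (edgeR adjusted p = 4.57e-13) at P5 and 0.29 ± 0.06 (adjusted p = 2.72e-05) at P15.

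Genes of SUMO conjugation, a modification used by Trim28 and the SUMO ligases around it, were lower in 5 of 7 and higher in 1 at P5, and in 3 and 2 at P15. At P5, 31.1% of all genes were lower and 31.2% higher, and at P15, 28.4% and 28.2%. *Uba2*, a subunit of the SUMO-activating enzyme, was at 379 and 396 CPM in naïve P5, 161 and 160.3 in primed P5, 402 and 402 in naïve P15, and 209.6 and 220.2 in primed P15. *Sae1*, the other subunit, fell by 0.47 ± 0.04 at P5 and was at -0.22 ± 0.06 at P15, a call lost in 5 of 11 alternatives, among them those without naïve P15 replicate 2 or primed P15 replicate 1 or 2 (adjusted p = 0.0129 to 0.0175). *Pias4*, a SUMO ligase, fell by 0.34 ± 0.05 at P5, a call lost with unscaled library sizes (-0.14, adjusted p = 0.0247), and was at -0.25 ± 0.07 at P15, a call lost in 6 of 11, among them those without naïve P15 replicate 2 (adjusted p = 0.0178) or primed P15 replicate 2 (adjusted p = 0.151). In primed cells 6 of the 7 rose from P5 to P15 and 0 fell, beside 24.3% and 22.8% of all genes.

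Of the H3K9 demethylases, which oppose the mark, 5 of 7 were called lower and 1 higher at each passage, and the higher gene differed between passages. All genes were called lower in 31.1% and higher in 31.2% at P5, and in 28.4% and 28.2% at P15. *Kdm4c* had log2 fold changes of -0.92 ± 0.05 and -0.97 ± 0.07, *Kdm3b* of -0.51 ± 0.04 and -0.55 ± 0.07, and *Kdm3a* of -0.31 ± 0.05 and -0.54 ± 0.07. With unscaled library sizes the *Kdm3a* call at P5 was lost (-0.10, adjusted p = 0.043).

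**Figure D5:**
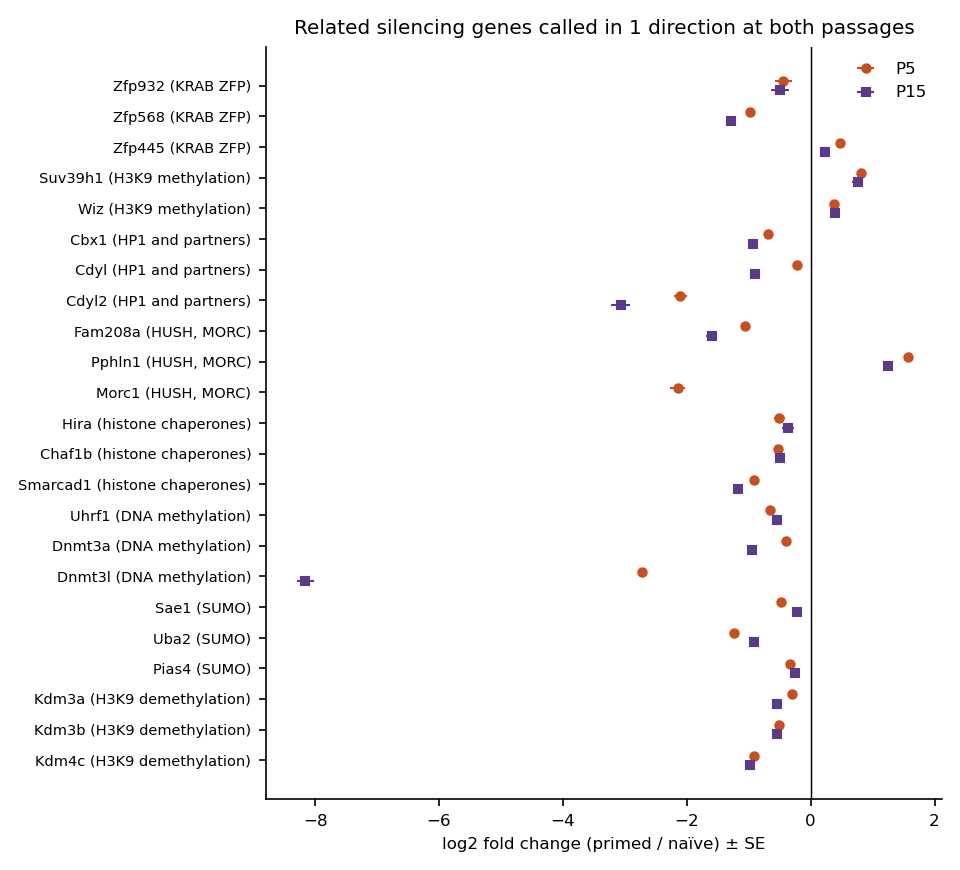
Log2 fold change of primed against naïve cells (horizontal axis) with SE at P5 and P15 for related silencing genes, with their list in brackets. Drawn are the genes named by the rule of up to 3 per list, which leaves out *Morc2a* and *Dnmt3b*. *Suv39h1*, *Wiz*, *Zfp445* and *Pphln1* lie to the right of 0, the other 19 to the left, and no P15 point is drawn for *Morc1*, which had at most 2 counts in a primed P15 library.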

How the data were processed

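RNA-seq of 9 libraries was used. The deposited table holds raw counts per gene. Per the labels and methods, poly(A) RNA libraries (NEBNext Ultra, a kit that does not mark strand) were sequenced, and reads were trimmed with Cutadapt, aligned with HISAT2 to mm10 and counted with featureCounts, whose strand and multi-mapping settings are not given in the sources used here. GENCODE M21 names were found for 54165 of 54232 genes. Spike-in entries (92) had a count of 0 throughout and were not used.

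edgeR 4.0.16 (R 4.3.3) was run on genes with at least 10 counts in at least 2 libraries of a comparison, with TMM scaling and calls at an adjusted p under 0.01. Each pairwise fit held 4 libraries, and the interaction 8. Levels are CPM from TMM over all 9 libraries, with n = 2 per group, and SE are from edgeR. Counts bound the precision for counting error only. The feeder share of a library is the median ratio of 30 fibroblast markers to MEF, above what the lowest markers give. Alternatives were DESeq2 1.42.0 (Wald test, size factors), unscaled library sizes, no filter, all 8 libraries, a replicate block, feeder subtraction and leaving out each replicate. Code was tested on simulated counts. Members and lists were chosen with earlier results of these data known. Named from each list were up to 3 genes called in the same direction at both passages with the largest mean change, and for members spanning 1 log2 unit the 3 nearest genes with at least 10 CPM.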

Additional observations from a re-analysis of the deposited data

Results flagged for a closer look

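The effect of the primed state differed between P5 and P15 by edgeR's interaction test (adjusted p under 0.01) for 4 members and 10 related genes named above. Values are the log2 effect at P15 minus that at P5. Among members it was 0.41 for *Trim28*, -1.22 for *Zfp57*, -0.31 for *Atrx* and -0.44 for *Morc3*. Among related genes it was -0.29 for *Zfp568*, -0.67 for *Cdyl*, -0.94 for *Cdyl2*, -0.53 for *Fam208a*, -0.30 for *Pphln1*, -0.52 for *Dnmt3a*, -5.43 for *Dnmt3l*, 0.27 for *Sae1* and 0.34 for *Uba2*. For *Morc1* the fitted value was -6.54, which depends on the prior count because primed P15 held at most 2 counts. The call of *Zfp568* was lost in 4 of 14 alternatives, among them those without naïve P5, primed P5 or primed P15 replicate 2 (adjusted p = 0.0211 to 0.0448). That of *Fam208a* was lost without naïve P5 replicate 2 (adjusted p = 0.0101), as was that of *Atrx* (adjusted p = 0.0227). *Pphln1* lost its call in 9 of 14, including the removal of any library but primed P5 replicate 1 or primed P15 replicate 2 (adjusted p = 0.0119 to 0.0278). *Sae1* lost it in 5 of 14, including the removal of naïve P5 replicate 2, primed P5 replicate 1 or 2, or naïve P15 replicate 1 (adjusted p = 0.0127 to 0.0308).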

How the results depend on the processing

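No called value of a member, or of a gene named by the rule of up to 3 per list, changed sign in an alternative. With unscaled library sizes, members lower at least 2-fold at P5 were 1, related genes at P5 were 20 lower and 18 higher, members higher at P15 were 1, members higher in primed cells with passage were 1, and all genes higher were 2554 in primed cells with passage and 1402 for the interaction. By DESeq2's Wald test 8 related genes were higher at P15. Without the low-count filter, 323 genes were lower and 228 higher with passage in naïve cells, and 2 members were higher for the interaction. After feeder subtraction 359 genes were higher with passage in naïve cells. Leaving out 1 library at a time gave 8 to 11 related genes higher at P15 (8 without naïve P15 replicate 2), 1 to 2 members higher (2 without primed P15 replicate 2) and 1441 to 2169 genes higher (1441 without primed P5 replicate 2) for the interaction, 7 to 8 members lower at P5, and 6 at P15. The cause of these shifts was not tested.

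Libraries share only replicate numbers. Deviations of same-numbered libraries correlated at -0.13 between states at P5, -0.19 at P15, and 0.16 between passages in either state. With a replicate block, 1430 genes were lower and 1353 higher with passage in naïve cells, against 786 and 660 without it, and the counts of members called were the same in all 5 comparisons. With crossed pairs, chosen after seeing the data, 5332 genes were lower and 5343 higher at P5, and 4772 and 4705 at P15. With 2 libraries per group, small changes such as those of *Mphosph8* and of *Setdb1* at P15 are bounded by the intervals given.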
